A study of Mus musculus with 20 samples.

Results

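The comparison described here sets fetal livers in which neither the mother nor the fetus had a working Ppara gene against livers in which both carried one copy. It used 8 of the 20 libraries in the series. The 4 KO/KO libraries came from Ppara knockout fetuses of Ppara knockout dams (KODam_KOFetus), and the 4 Het/Het libraries from heterozygous fetuses of heterozygous dams (HetDam_HetFetus). All were livers at E17.5 from mice labelled C57BL/6 whose dams had been fasted for 24 h, and each of these groups held 2 females and 2 males. No group of the Ppara arm was wild type, since the Het/Het controls also carried a single copy, and the labels do not say which piece of Ppara the knockout allele lacks. Members were all genes with a log2 value of at least 0 in at least 4 of the 20 libraries, which left 11807 of 45802 gene entries, of which 11783 had values in both groups. A library is bulk RNA from 1 fetal liver, and 3 further groups of 4 serve as reference points. KO/Het livers (KODam_HetFetus) were heterozygous fetuses of knockout dams. Flox/flox livers (FloxDam_FloxFetus) were Cpt2 f/f fetuses of Cpt2 f/f dams, which the titles call wild type, and Cpt2-arm livers (Cpt2LKODam_FloxFetus) were Cpt2 f/f fetuses of Cpt2 f/f dams that carried Albumin-Cre, a driver of deletion in hepatocytes.

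PPARA is a nuclear receptor that binds fatty acids released by fasting. With its partner RXR it sits on paired AGGTCA-like elements next to its target genes and switches on fatty acid oxidation in mitochondria and peroxisomes, omega-hydroxylation in microsomes and ketone body synthesis. A fasted pregnant dam sends more fatty acid to the fetus, and the fetal liver at this stage is both a young metabolic organ and the main site of blood cell formation.

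The values are the authors' deposited logarithms, read as base 2 although the table does not name the base, and they had been quantile normalized, so the libraries share one distribution. Read depth is unknown. Correlations across genes were 0.949 to 0.982 between libraries of 1 group and 0.918 to 0.966 between groups. Albumin and alpha-fetoprotein stood above 12 in all 8 libraries (Alb 14.52 to 16.15, Afp 12.74 to 13.93), and 12 placenta and yolk sac markers summed to at most 0.159 on the linear scale. A library of each group carried skeletal muscle transcripts. Acta1, skeletal muscle actin, stood at 5.88 in KO/KO replicate 2 and at 5.68 in Het/Het replicate 4, and at -0.56 to -0.08 in the other 6. The sum over 20 muscle markers was 392 and 280 in these libraries and 67.3 to 105 in the rest. KO/KO replicates 1 and 2, both male, share a number in their descriptions and may be littermates. KO/Het replicates 1 and 2 share a number too, but below the term presumed littermates means the KO/KO pair.

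Of the 11783 genes tested, 2913 were called at a limma adjusted p under 0.05, or 24.7%. Of these, 2050 were higher in KO/KO livers (17.4% of genes tested) and 863 lower (7.32%). The largest changes were mostly falls. At least 2-fold and called were 360 lower genes (3.06%) and 250 higher ones (2.12%). The groups did not overlap for 858 lower genes (7.28%) and 2243 higher ones (19%), and 39% of genes had an unadjusted p under 0.05. The surplus of rises rests on how the libraries are scaled. The median gene differed by 0.14 on the log2 scale, and a trimmed-mean scaling moved that median to 0.02 and the split to 1151 higher and 1386 lower. Quantile normalization of the tested genes alone gave 1473 higher and 1165 lower. For that reason the counts of each gene list below are to be read against the median of 0.14 and the shares of all genes. These shares were 24.7% in either direction, 17.4% higher and 7.32% lower. Groups of 4 limit the precision. Leaving out KO/KO replicate 4 brought the calls to 1826, with 1293 higher and 533 lower. With presumed litter as a random block there were 2325 calls, 1647 higher and 678 lower. The consensus correlation within presumed litters was 0.566. Leaving out both muscle-marked libraries gave 1575 higher and 851 lower.

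Ppara itself (chromosome 15, 85734910 to 85806851, GRCm38.p6) was at 2.94, 2.86, 3.47 and 3.25 in Het/Het replicates 1 to 4 and at 2.40, 2.48, 1.87 and 2.30 in KO/KO replicates. The groups did not overlap, and the fall was 0.87 ± 0.264 (SE, n = 4 against 4, limma adjusted p = 0.0237). KO/Het livers, whose fetuses keep a copy, averaged 2.56 ± 0.679 (SD, n = 4), and KO/KO livers differed from them by -0.30 (95% interval -0.85 to 0.25, adjusted p = 0.682). A single value per gene cannot show whether the remaining transcript is intact, so Ppara's level does not check the labels. Its call was lost when any of 4 libraries was left out (Het/Het replicate 3 or 4, KO/KO replicate 3 or 4, adjusted p = 0.0501 to 0.0742) and without the muscle-marked pair (adjusted p = 0.0529). Of 17 tested PPAR receptors, partners and cofactors, Ppara was the 1 gene called. Rxra, the heterodimer partner, differed by -0.18 (95% interval -0.66 to 0.30), and Nrip1, a corepressor, by 1.01 (0.24 to 1.79, adjusted p = 0.0521).

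The promoters of genes on both sides of the comparison were searched for the PPARA-RXR element, AGGNCA repeated after 1 free base (TGNCCT repeated after 1 free base on the other strand, both searched), in RefSeq windows of 250 bases before to 50 after the start on GRCm38.p6. A window was at hand for 8712 of the tested genes. The letters occurred in 9 of 660 lower genes with a window (1.36%), 5 of 1505 higher ones (0.332%), 33 of all 8712 tested (0.379%) and 122 of all 27025 genes with a window (0.451%). Among the PPARA target genes listed in the fit, 1 of 45 held it. That gene was Fabp1. The 4 stretches below show the motif in capitals with its flanks, on the strand of the gene and 5′ to 3′. Fabp1, Pbld1 and Pdzk1 were lower in KO/KO livers, and Bco1 is shown because it carries the pair and moved the other way.
Fabp1 (chr6:71199772-71199864, plus strand): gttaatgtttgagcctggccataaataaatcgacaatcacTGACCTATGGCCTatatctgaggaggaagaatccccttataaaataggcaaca
Pbld1 (chr10:63061368-63061460, plus strand): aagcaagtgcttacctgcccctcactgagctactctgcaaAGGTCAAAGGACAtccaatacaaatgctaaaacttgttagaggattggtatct
Pdzk1 (chr3:96829968-96830060, plus strand): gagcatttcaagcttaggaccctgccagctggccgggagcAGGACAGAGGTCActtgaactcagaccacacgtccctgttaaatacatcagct
Bco1 (chr8:117095769-117095861, plus strand): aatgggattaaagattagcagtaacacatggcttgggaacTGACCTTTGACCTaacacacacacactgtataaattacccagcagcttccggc
The pair begins 67 bases before the start in Fabp1, 181 in Pbld1, 57 in Pdzk1 and 56 in Bco1. A match of letters is a description of the window and shows no binding.

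Those 4 genes differed as follows. Fabp1, the fatty acid carrier of liver cytosol, was at 8.40 to 9.09 in Het/Het livers and at 7.24 to 7.65 in KO/KO livers, a fall of 1.46 ± 0.168 (adjusted p = 3.54e-05). Pbld1, named for phenazine biosynthesis-like domain, went from 5.50 to 6.19 down to 2.72 to 4.24, a fall of 2.34 ± 0.284 (adjusted p = 5.62e-05). Pdzk1, a scaffold for membrane carriers and the HDL receptor, fell by 1.08 ± 0.200 (adjusted p = 0.00146). Bco1, which cleaves beta-carotene to retinal, was at 1.46, 1.15, 1.26 and 1.12 in Het/Het replicates and at 2.94, 3.25, 2.87 and 2.57 in KO/KO replicates. It rose by 1.66 ± 0.182 (adjusted p = 2.09e-05), with no overlap. Against KO/Het livers, Fabp1 fell by 1.76, whereas Pbld1 (0.03), Pdzk1 (-0.53) and Bco1 (0.36) were not called. For Pdzk1 the 95% interval was -0.95 to -0.11, without 0, although the limma adjusted p was 0.365.

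Known PPARA targets were mostly lower. Of 57 tested genes on that list, 36 fell, 3 rose and 18 were not called (68.4% called against 24.7% of all genes), with a median difference of -0.99 against 0.14. The count of falls was 32 to 36 with each library left out, 36 without the muscle-marked pair, and 38 and 37 under the other scalings. Acot1, Pex11a and Mgll were the 3 that rose. The calls of both Acot1 and Pex11a were lost without Het/Het replicate 4, without KO/KO replicate 2, 3 or 4, without the muscle-marked pair and with presumed litter as a random block.

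**Figure D1:**
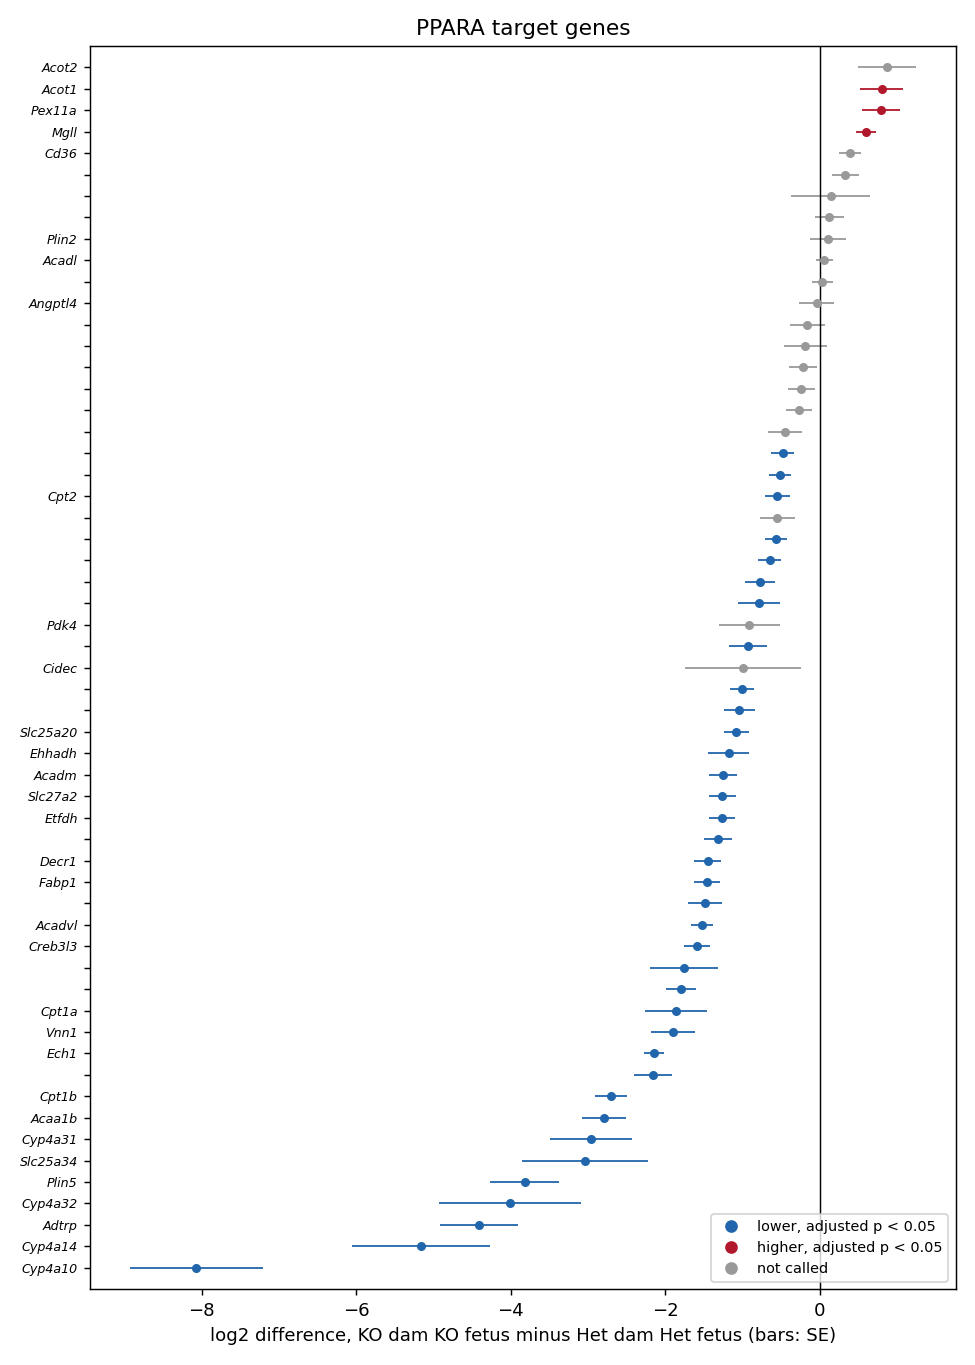
Difference in log2 value between KO/KO and Het/Het livers (x axis) for the 57 tested PPARA target genes (y axis, with names for those described in the text), with bars for the standard error. Blue points are called lower (36), red points higher (3) and grey points not called (18). Cyp4a10, at -8.07, lies farthest left.

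The microsomal omega-hydroxylases start the breakdown of fatty acids from the methyl end. Cyp4a10 (chromosome 4, 115518287 to 115533649) stood at 3.62, 3.98, 4.07 and 1.81 in Het/Het livers and at -2.87, -5.59 and -5.64 in KO/KO replicates 2 to 4, with no value in replicate 1. The difference was -8.07 ± 0.861 (adjusted p = 2.09e-05), fitted on the 7 libraries that had a value. Het/Het replicate 4 was the lowest control and still lay above every KO/KO library. Cyp4a14 fell by 5.16 ± 0.889, from 0.21 to 3.75 down to -4.68 to -0.45. Cyp4a31 fell by 2.96 ± 0.528. Cyp4a32 fell by 4.01 ± 0.915 from a mean of -0.40, with 1 KO/KO blank and with Het/Het replicate 4 (-3.34) below KO/KO replicate 2 (-2.86). These paralogs are close in sequence, so reads may have been split between them. In all, 6 of 11 omega-hydroxylation genes fell and 0 rose, at a median of -0.56. Among them, Cyp4f15 fell by 1.16 ± 0.272, but was not called against KO/Het livers (0.07, adjusted p = 0.942), whereas Cyp4a10 (-6.14) and Cyp4a14 (-5.22) fell in that comparison too. With a pseudocount of 4, which damps low values, those last differences were -0.89 and -1.41 and neither was called.

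Peroxisomal oxidation shortens very long and branched fatty acids. Here 20 of 29 genes fell and 0 rose (69%), at a median of -1.01, and leaving out single libraries gave 19 or 20. Ehhadh, the bifunctional enzyme of the cycle, went from 3.93, 3.63, 3.89 and 3.50 to 2.12, 2.64, 2.69 and 2.79, a fall of 1.18 ± 0.262 (adjusted p = 0.00422). The groups did not overlap. Acaa1b, a thiolase that ends the cycle, fell by 2.79 ± 0.288, or 6.93-fold (adjusted p = 1.05e-05). Ech1 and Decr2, which handle double bonds of unsaturated fatty acids, fell by 2.14 ± 0.129 and 2.86 ± 0.222. Hao1, which oxidizes glycolate, fell by 2.71 ± 0.359, and Slc27a2, which activates very long fatty acids, by 1.26 ± 0.172. Peroxins, which build the organelle, were mixed. Of 16 tested, 3 fell and 2 rose. Pex6 and Pex26, parts of the machine that recycles the import receptor, fell by 1.11 ± 0.200 and 1.23 ± 0.323. Pex3, a membrane assembly factor, rose by 0.62 ± 0.140. Pex11a, which drives division of peroxisomes and is itself a PPARA target, rose by 0.79 ± 0.250 (adjusted p = 0.0288), a call lost without any of 5 single libraries (adjusted p = 0.0543 to 0.0803), without the muscle-marked pair (adjusted p = 0.152) and with presumed litter as a random block (adjusted p = 0.0514). None of these 4 peroxins was called against KO/Het livers. In that comparison 3 other peroxins were lower and 0 higher. Pex16, a membrane assembly factor, differed by -1.26 ± 0.175 (adjusted p = 3.17e-04), Pex14, a docking protein for the import receptor, by -0.89 ± 0.132 (adjusted p = 6.07e-04) and Pex19, a carrier of membrane proteins, by -0.60 ± 0.135 (adjusted p = 0.0378).

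Mitochondrial beta-oxidation was lower at most steps. Of 29 genes for the carnitine shuttle and the spiral, 20 fell and 0 rose, with a median of -0.65, and single libraries left out gave 17 to 20. Cpt1a, the liver gate for long-chain fatty acids, fell by 1.86 ± 0.406 (adjusted p = 0.00372), from 4.79, 4.62, 4.87 and 3.76 to 2.17, 2.49, 2.78 and 3.14. The lowest Het/Het library was again replicate 4. Slc25a20, the carnitine carrier of the inner membrane, fell by 1.08 ± 0.158. Cpt2, which the other arm of the study deletes in the dam's liver, fell by 0.55 ± 0.162 (adjusted p = 0.0205), a call lost without Het/Het replicate 1 or KO/KO replicate 3 or 4 (adjusted p = 0.0510 to 0.0679). Acadvl, the dehydrogenase for very long chains, was at 6.29 to 6.58 in Het/Het livers and at 4.75 to 4.98 in KO/KO livers. It fell by 1.52 ± 0.142 (adjusted p = 3.81e-06). Acadm, for medium chains, fell by 1.25 ± 0.183. Acadl, for long chains, was not called (0.06, 95% interval -0.17 to 0.29). Etfdh, which passes the electrons to the respiratory chain, fell by 1.27 ± 0.169, and Decr1 by 1.45 ± 0.173. Slc25a34, a mitochondrial carrier on the target list, fell by 3.04 ± 0.812 from a mean of -1.69, with 1 KO/KO blank, and its call was lost with either pseudocount tried, without KO/KO replicate 4 and with these groups fitted alone.

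Ketone body synthesis counted 3 lower and 1 higher of 8 tested genes. Acat1, which joins the acetyl-CoA units, fell by 1.11 ± 0.193. Bdh1, which makes beta-hydroxybutyrate, was not called (-0.24, 95% interval -0.67 to 0.19). Slc16a6, a ketone exporter, rose by 0.54 ± 0.186 (adjusted p = 0.0402), and was not called under either other scaling or without several single libraries.

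Genes of fat storage fell in part. Plin5, which ties lipid droplets to mitochondria, went from 4.41, 4.62, 4.46 and 4.28 to 0.11, 1.89, 0.23 and 0.25, a fall of 3.82 ± 0.444, or 14.1-fold (adjusted p = 3.54e-05). KO/KO replicate 2, the library with muscle transcripts, was the highest of its group. Cideb, needed to load lipoproteins with fat, fell by 1.77 ± 0.243, and G0s2, an inhibitor of the droplet lipase, by 2.35 ± 0.451. Lipid droplet and lipolysis genes as a list counted 8 lower and 1 higher of 20. The one higher was Mgll, monoglyceride lipase, at 2.58 to 2.80 in Het/Het and 3.18 to 3.47 in KO/KO livers, a rise of 0.60 ± 0.128 (adjusted p = 0.0034). Creb3l3, a fasting transcription factor that works with PPARA, fell by 1.59 ± 0.168. Adtrp, a hydrolase of fatty acid esters of hydroxy fatty acids, fell by 4.41 ± 0.509 from values near 0, and Vnn1, pantetheinase, by 1.90 ± 0.281.

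Several textbook targets were not called lower. Angptl4, a secreted inhibitor of lipoprotein lipase, was at 5.63, 5.74, 5.87 and 4.80 in Het/Het and at 5.09, 5.48, 5.38 and 5.95 in KO/KO livers. The groups overlapped, and the difference was -0.04 (95% interval -0.52 to 0.45). Plin2, the general droplet coat protein (1 of its 2 table entries reached the minimum, Plin2_2), differed by 0.11 (-0.38 to 0.59). Pdk4, which switches off pyruvate dehydrogenase, differed by -0.91 (-1.73 to -0.10, adjusted p = 0.0909), and Cidec, a droplet fusion protein, by -0.99 (-2.56 to 0.58). Cd36, a fatty acid uptake protein, differed by 0.39 (0.09 to 0.69, limma adjusted p = 0.0555). Acot2, a mitochondrial thioesterase, differed by 0.87 (0.08 to 1.66, adjusted p = 0.0963), and its cytosolic relative Acot1 rose by 0.80 ± 0.281 (adjusted p = 0.0433). Het/Het replicate 4 was the lowest library for both thioesterases, at 0.79 for Acot2 and 3.03 for Acot1, and without it Acot1 differed by 0.43 (adjusted p = 0.151). The Acot1 call was also lost under both other scalings (adjusted p = 0.0735 and 0.0517), with the replicate block (adjusted p = 0.0588), with the compared groups fitted alone (adjusted p = 0.11) and without KO/KO replicate 2, 3 or 4 (adjusted p = 0.0647 to 0.12). Pdp1, a phosphatase that reactivates pyruvate dehydrogenase, rose by 1.24 ± 0.351 (adjusted p = 0.0165), and was not called without the muscle-marked pair (adjusted p = 0.0662).

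Several targets, but not all, had higher values than in either group when the fetus of a knockout dam kept a copy. KO/Het livers averaged 7.12 for Angptl4, 7.01 for Plin2, 6.64 for Pdk4, 4.65 for Acot2, 7.19 for Ehhadh and 0.71 for Cidec, all above both KO/KO and Het/Het livers. Their means lay below those of Het/Het livers for Cyp4a10 (1.44 against 3.37), Plin5 (3.32 against 4.44), Decr2 (3.66 against 4.53) and Hao1 (2.63 against 3.76). KO/Het replicates 1 and 2, which share a description number, were the low pair for 3 of these genes. Against the other KO/Het libraries they stood at 0.27 and -0.14 against 2.25 and 3.36 for Cyp4a10. For Plin5 the values were 2.25 and 2.38 against 4.20 and 4.43, and for Decr2 2.90 and 3.37 against 4.03 and 4.32. Over the target list, the median of KO/Het minus Het/Het means was 0.26, beside 0.14 for all genes. KO/KO livers stood below KO/Het livers by 1.65 ± 0.230 for Angptl4, 1.70 ± 0.232 for Plin2, 3.35 ± 0.389 for Pdk4, 2.14 ± 0.377 for Acot2 and 4.63 ± 0.262 for Ehhadh (adjusted p = 1.65e-09 to 0.00352). The Acot2 call was lost with these groups fitted alone (adjusted p = 0.0644) and without the presumed littermates (adjusted p = 0.191). This contrast and the main one share the KO/KO libraries, so their values are set side by side only.

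**Figure D2:**
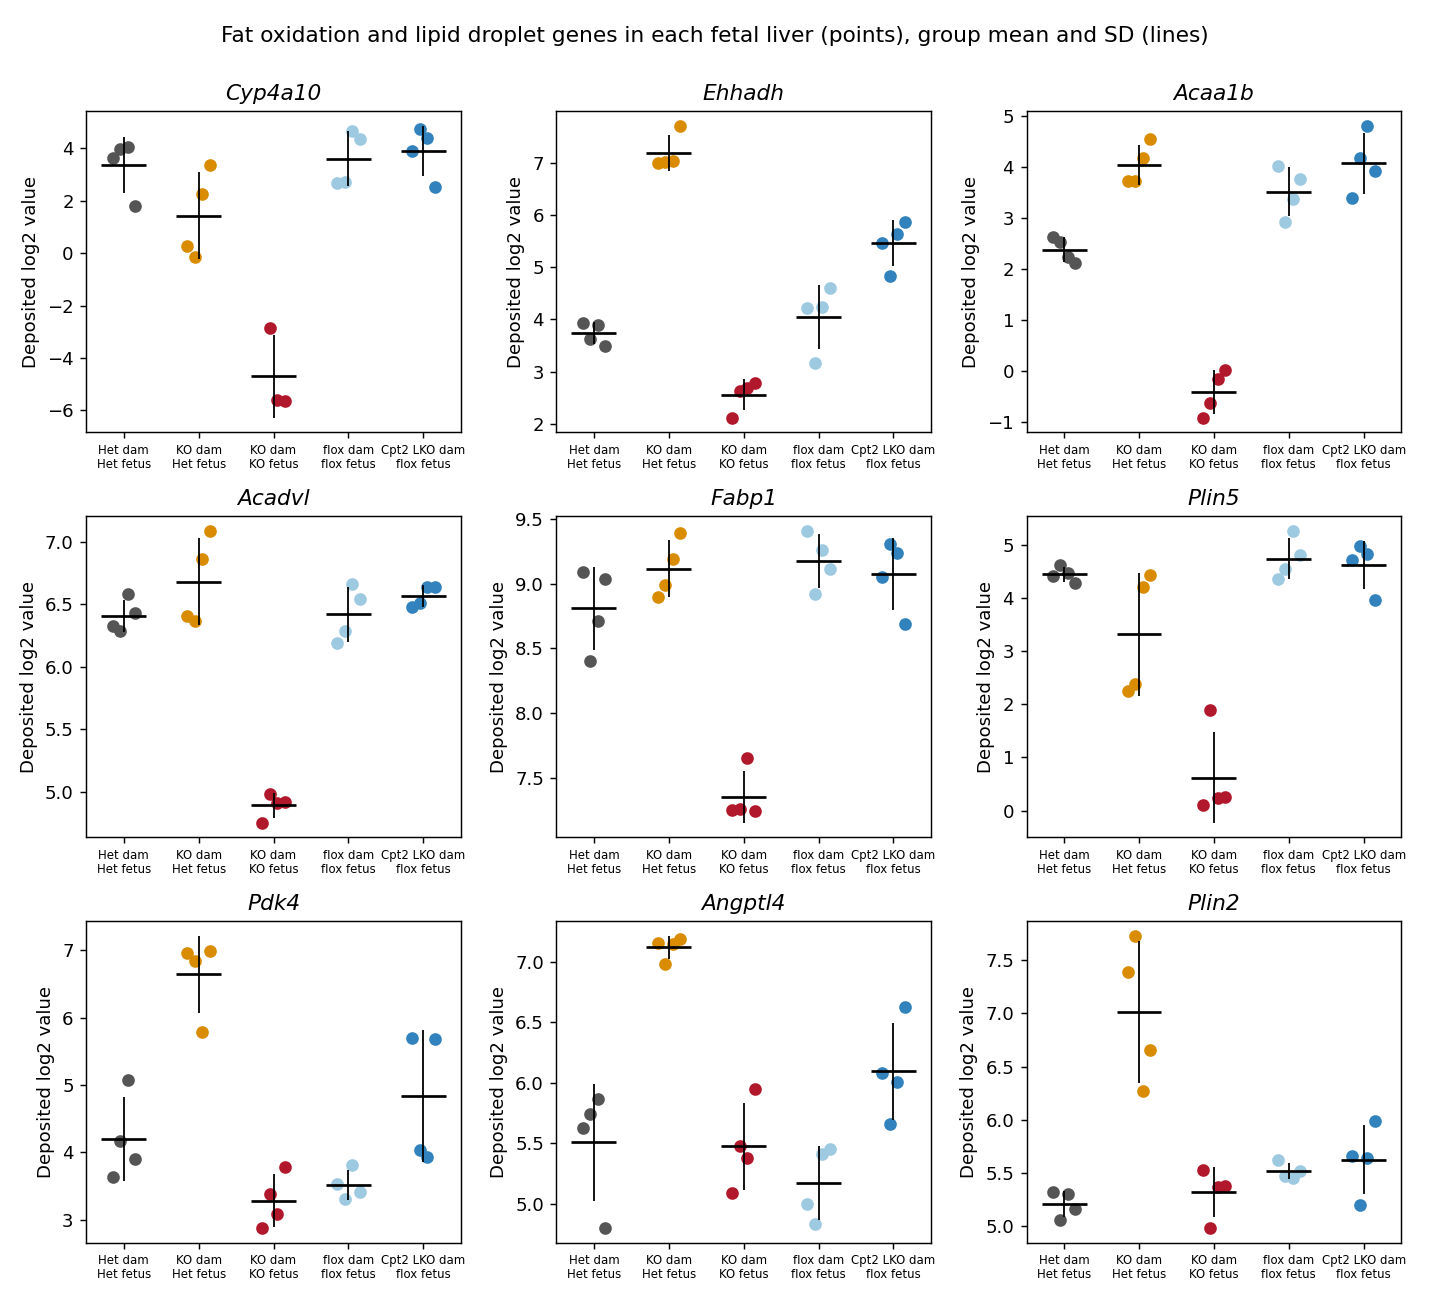
Deposited log2 values (y axis) of 9 genes in each liver of the 5 groups (x axis), with group means and standard deviations as lines. KO/KO livers lie below every other group for Cyp4a10, Ehhadh, Acaa1b, Acadvl, Fabp1 and Plin5, and near Het/Het livers, below KO/Het livers, for Angptl4 and Plin2.

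Over all genes, KO/KO differed from KO/Het livers at 97 of 11791 genes tested (0.823%), of which 94 were lower (0.797%) and 3 higher (0.0254%). Of the PPARA target list, 36 of 57 were lower in that contrast at a median of -1.55, and 0 were higher. The 3 higher genes were Clec4a1, a myeloid lectin receptor (1.17 ± 0.232), Ank, a pyrophosphate exporter (1.05 ± 0.242), and Hmox1, heme oxygenase (0.51 ± 0.104). Ank also rose against Het/Het livers (0.72 ± 0.242), a call lost under both other scalings and without any of 5 single libraries. The calls of all 3 against KO/Het livers were lost with presumed litter as a random block (adjusted p = 0.0679 to 0.249). The number of calls depended on the fit. It was 63 with the libraries of these groups alone, 62 without the presumed littermates and 147, with 50 of them higher, without KO/KO replicate 3.

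A test of the difference between the combined loss and the maternal Cpt2 effect, each against its own controls, called 51 of 11775 genes (0.433%), 41 of them with a negative difference (0.348%) and 10 with a positive one (0.0849%). The 2 effects share no library. Of the PPARA targets, 21 of 57 were on the negative side and 0 on the positive. Ehhadh differed between the arms by -2.58 (adjusted p = 0.00161), Acadvl by -1.66 (adjusted p = 2.05e-04) and Cyp4a10 by -8.37 (adjusted p = 0.00161). For Ehhadh the means were 3.74 and 2.56 in Het/Het and KO/KO livers and 4.05 and 5.46 in flox/flox and Cpt2-arm livers. Of the genes on the positive side, Timp1 differed by 2.15 (adjusted p = 0.0355) and Bco1 by 1.18 (adjusted p = 0.0482), and both calls were lost under most alternatives. The count was 22 to 80 under the alternatives that keep every library, and 31 to 69 with single libraries left out. Leaving out Het/Het replicate 2 or 3, KO/KO replicate 1, or flox/flox replicate 1 or 2 gave 31 to 33.

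**Figure D3:**
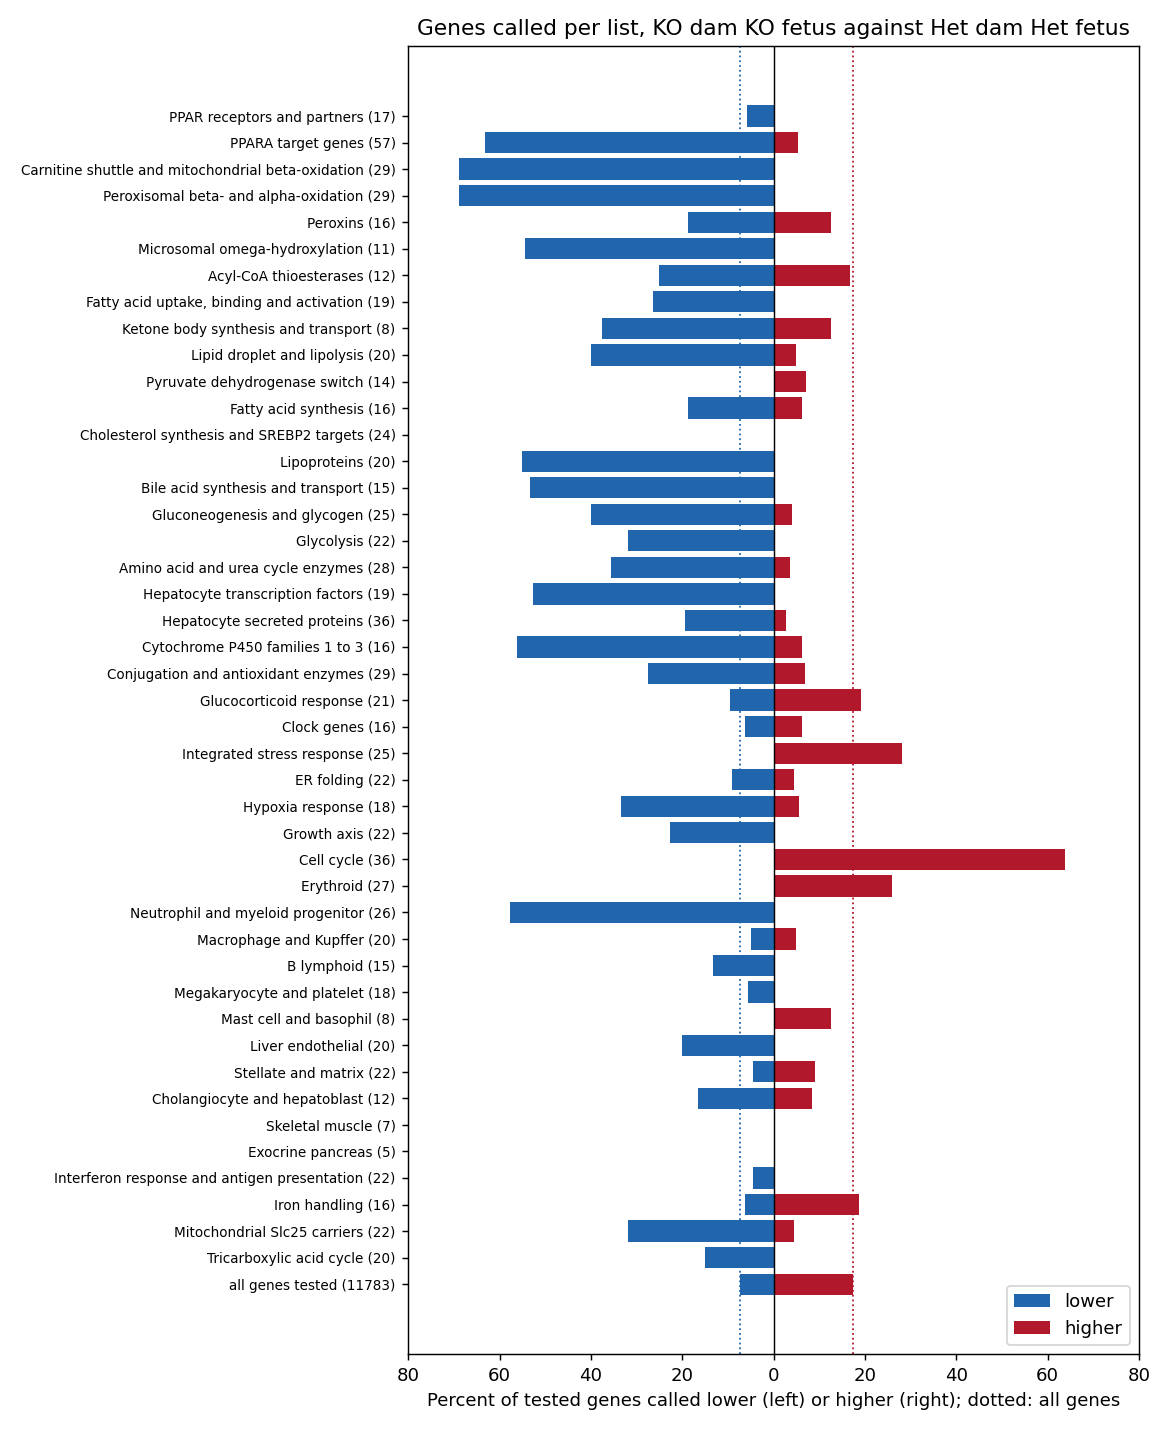
Percent of tested genes (x axis) called lower, to the left, or higher, to the right, in KO/KO against Het/Het livers for each gene list with at least 5 tested genes (y axis, number tested in brackets). Dotted lines mark all genes, at 7.32% lower and 17.4% higher. Fatty acid oxidation, bile acid, lipoprotein and neutrophil lists extend left, and the cell cycle list extends right.

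Beyond fat oxidation, genes of the mature hepatocyte were lower. Of 19 transcription factors of that cell, 10 fell and 0 rose at a median of -0.65, or 6 without the muscle-marked libraries. The count was 5 without Het/Het replicate 3 or 4 or KO/KO replicate 3 or 4. Cebpa, a factor of hepatocyte and myeloid maturation, was at 5.53, 6.05, 6.00 and 6.10 in Het/Het and at 4.29, 5.12, 3.67 and 4.50 in KO/KO livers. It fell by 1.52 ± 0.287 (adjusted p = 0.00156). Nr1h4, the bile acid receptor FXR, fell by 1.74 ± 0.415. Onecut1, a factor of hepatoblasts and bile ducts, fell by 3.06 ± 0.846, but its Het/Het values were split (0.24, 0.34, 3.76 and 3.63) and the call was lost without either high library (adjusted p = 0.0538 and 0.0532) or without the muscle-marked pair (adjusted p = 0.0719). Hnf4a, the central hepatocyte factor, was not called (-0.19, 95% interval -0.71 to 0.32). Against KO/Het livers, none of Cebpa (0.36), Nr1h4 (-0.32) and Onecut1 (-1.22) was called. In bulk tissue, fewer hepatocytes and less of these RNAs per hepatocyte cannot be told apart.

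Bile acid genes had a list median of -1.14, with 8 of 15 lower and 0 higher. KO/Het livers were low too, with a median of -1.15 for KO/Het minus Het/Het means. Between KO/KO and KO/Het livers 0 of the 15 were called by limma (1 at an unadjusted p under 0.05). Slc10a1, the main uptake carrier for bile acids, was at 6.24, 6.24, 6.39 and 6.40 in Het/Het livers and at 2.41, 4.82, 2.94 and 3.11 in KO/KO livers, a fall of 3.00 ± 0.594 (adjusted p = 0.00217). The groups did not overlap, and KO/KO replicate 2 was closest to the controls. Slco1b2, an organic anion carrier, fell by 2.26 ± 0.682, and was not called without KO/KO replicate 1, 3 or 4 (adjusted p = 0.0572 to 0.0649). Abcb11, the bile salt export pump, fell by 1.81 ± 0.438 and Hsd3b7, a synthesis enzyme, by 1.27 ± 0.215. Cyp7a1, which limits the classic pathway, went from 2.18 to 2.60 to values spread from -1.70 to 1.80, and its difference of -2.59 did not pass (95% interval -4.78 to -0.39, adjusted p = 0.0764). The list count was 4 without KO/KO replicate 1 or 4.

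Cytochrome P450 genes of families 1 to 3, which handle drugs and steroids, had the lowest median of any list with at least 5 tested genes (-1.30), with 9 of 16 lower and 1 higher. Cyp2c70 fell by 1.77 ± 0.423 and Cyp2a5 by 2.24 ± 0.533, the latter with KO/KO values of 2.03, 2.00, -0.18 and -0.18. The presumed littermates were thus the high pair and the other fetuses the low pair. Cyp2c69 fell by 5.52 ± 1.33 from a mean of 1.38, with 1 blank, and its call was lost without the muscle-marked pair (adjusted p = 0.056). The count of falls was 6 without that pair, and 6 without Het/Het replicate 4 or KO/KO replicate 4. KO/Het livers were low too, with a median of -0.9 for KO/Het minus Het/Het means. Between KO/KO and KO/Het livers 0 of the 16 were called by limma (3 at an unadjusted p under 0.05). Genes of these families have near-identical copies, and the authors' counting could have divided their reads.

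Plasma lipid carriers, sugar stores and amino acid breakdown were lower in part. Of 20 lipoprotein genes, 11 were lower and 0 higher (55% called). Among them were Apoc3, an inhibitor of triglyceride clearance (-2.21 ± 0.554), and Lrp1, a remnant receptor (-1.39 ± 0.311). Of 25 gluconeogenesis and glycogen genes, 10 were lower and 1 higher (44% called). Ppp1r3b, which targets phosphatase to glycogen, fell by 2.23 ± 0.464, Gys2, liver glycogen synthase, by 1.23 ± 0.185, and Slc2a2, the liver glucose transporter, by 1.37 ± 0.270. Amino acid and urea cycle enzymes had 10 of 28 lower and 1 higher (39.3% called). Among the falls were Hgd (tyrosine breakdown) at -1.67 ± 0.269 and Uroc1 (histidine breakdown) at -1.24 ± 0.320. Etnppl, which breaks down phosphoethanolamine, was among the deepest falls at -4.42 ± 0.686. Without the muscle-marked pair the counts of falls were 10 lipoprotein, 6 sugar and 9 amino acid genes, and with presumed litter as a random block they were 8, 5 and 6. Leaving out KO/KO replicate 1 gave 7, 6 and 4. Without the presumed littermates Lrp1 (adjusted p = 0.0529) and Uroc1 (adjusted p = 0.0515) were not called. The medians of KO/Het minus Het/Het means were -0.3 for lipoprotein, -0.46 for sugar and -0.78 for amino acid genes. Between KO/KO and KO/Het livers limma called 1 lipoprotein gene, which was lower, and 0 sugar or amino acid genes. The counts at an unadjusted p under 0.05 were 6, 3 and 6. Of secreted plasma proteins, 7 of 36 were lower and 1 higher against Het/Het livers. The 22.2% called stood beside 24.7% of all genes in either direction and 7.32% lower. The list median was -0.42 against 0.14 for all genes, with 33 negative differences and 3 positive. Alb was not called (-0.57, adjusted p = 0.112), and Afp, the fetal counterpart of albumin, rose by 0.54 ± 0.186 (adjusted p = 0.0406), a call lost under both other scalings and without any of 7 single libraries (adjusted p = 0.0566 to 0.145). Cholesterol synthesis had 0 of 24 genes called by limma in either direction, with 4 at an unadjusted p under 0.05 and 3 lower with the compared groups fitted alone. Its median was -0.16, with 19 negative differences and 5 positive.

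Of 18 hypoxia response genes, 6 were lower and 1 higher (38.9% called, beside 24.7% of all genes). Between KO/KO and KO/Het livers 0 of the 18 were called by limma (2 at an unadjusted p under 0.05). Against Het/Het livers the list median was -0.37 for KO/KO livers and -0.29 for KO/Het livers. Egln3, an oxygen sensor that hypoxia itself induces, fell by 2.43 ± 0.543, from 2.59, 2.93, 3.17 and 4.53 to 1.97, 0.70, 0.36 and 0.46. Het/Het replicate 4 was highest here and for Pfkfb3, a glycolysis activator (3.02 against 1.20 to 1.84). Without that library the list held 3 falls, and Pfkfb3 (-1.36 ± 0.392 with it) and Hilpda, a droplet protein induced by hypoxia (-1.50 ± 0.458), were not called. Of 22 growth axis genes, 5 were lower and 0 higher (22.7% called, beside 24.7% of all genes in either direction and 7.32% lower). Igfbp2, an IGF-binding protein, fell by 1.81 ± 0.492, Ghr, the growth hormone receptor, by 0.93 ± 0.178, and Insr, the insulin receptor, by 0.98 ± 0.249, whereas Igf1 was not called (0.45, 95% interval -0.03 to 0.94). The Igfbp2 call was lost without the presumed littermates (adjusted p = 0.0725).

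The rises were broad and small. Cell cycle genes led them, with 23 of 36 higher and 0 lower (63.9%) at a median of 0.58. Under trimmed-mean scaling 13 were higher and 1 lower, with a median of 0.47 against 0.02 for all genes, and leaving out KO/KO replicate 1 gave 14 and Het/Het replicate 2 or 3 gave 15. Ccne1, cyclin E1, was at 3.78, 3.43, 3.28 and 3.33 in Het/Het livers and at 4.61, 4.09, 4.79 and 4.71 in KO/KO livers, a rise of 1.09 ± 0.203 (adjusted p = 0.00144). Ccnb1, cyclin B1, rose by 1.02 ± 0.178. Its kinase partner Cdk1 rose by 0.83 ± 0.143. Mki67, the common proliferation marker, was not called (0.44, adjusted p = 0.254). KO/Het livers were close to KO/KO livers for these genes, at means of 4.76 against 4.55 for Ccne1, and 0 of the 36 were called between those groups by limma (0 at an unadjusted p under 0.05).

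Of 27 red cell genes, 7 were higher, 0 lower and 20 not called. The 25.9% called was close to the 24.7% of all genes in either direction, but all were rises, beside 17.4% higher among all genes. The list median was 0.49 against 0.14 for all genes, with 25 positive differences and 1 negative. The embryonic beta-type globin Hbb-y was at 3.86, 3.17, 3.58 and 2.39 in Het/Het livers and at 4.48, 3.66, 5.27 and 6.13 in KO/KO livers. It rose by 1.64 ± 0.470 (adjusted p = 0.0174), although KO/KO replicate 2 lay below Het/Het replicate 1, and the call was lost without Het/Het replicate 4 or KO/KO replicate 4 (adjusted p = 0.0612 and 0.0714). Hba-x, the embryonic alpha-type globin, rose by 1.13 ± 0.398 (adjusted p = 0.0442) and was not called under either other scaling or without any of 6 single libraries (adjusted p = 0.0507 to 0.173). Epor, the erythropoietin receptor, rose by 0.93 ± 0.178 without overlap, and Fech, the last enzyme of heme synthesis, by 0.73 ± 0.177. The adult globin Hbb-bs differed by 0.21 (adjusted p = 0.279). The red cell count was 3 without KO/KO replicate 4 and 4 without the presumed littermates, where the list median was 0.26.

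Myeloid genes moved down. Of 26 neutrophil and myeloid progenitor genes, 15 were lower and 0 higher at a median of -0.70. The count ranged widely with single libraries, from 4 without KO/KO replicate 4 to 19 without KO/KO replicate 2. It was 5 without KO/KO replicate 1, 7, 10 and 9 without Het/Het replicates 2, 1 and 3, and 17 without the muscle-marked pair. In each of these fits at least 25 of the 26 lay below the median of all genes. KO/Het livers were low too, with a median of -0.95 for KO/Het minus Het/Het means. Between KO/KO and KO/Het livers 0 of the 26 were called by limma (2 at an unadjusted p under 0.05). Mmp8, neutrophil collagenase, was at 4.31, 4.38, 4.57 and 4.49 in Het/Het and at 2.65, 3.65, 3.12 and 2.72 in KO/KO livers, a fall of 1.40 ± 0.336 (adjusted p = 0.00646). Padi4, which modifies histones in neutrophils, fell by 1.44 ± 0.276, Csf3r, the G-CSF receptor, by 0.75 ± 0.185, and Cxcr2, a chemokine receptor, by 0.67 ± 0.187. Other blood and stromal lists held fewer calls. Macrophage and Kupffer genes counted 1 higher and 1 lower of 20, megakaryocyte genes 1 lower of 18 and B lymphoid genes 2 lower of 15. Liver endothelial genes counted 4 lower of 20 (20%, beside 7.32% lower of all genes). Differences were negative for 17 of the 18 megakaryocyte genes (median -0.3) and 13 of the 15 B lymphoid genes (median -0.35). The median of all genes was 0.14. Mast cell and basophil genes counted 1 higher and 0 lower of 8, with 5 positive and 3 negative differences. The 1 called was Mcpt8, a basophil protease, which rose by 1.99 ± 0.467. Its call was lost with a pseudocount of 4 (adjusted p = 0.0792).

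Genes of the integrated stress response, which cells use when amino acids or protein folding fail, counted 7 higher and 0 lower of 25 (median 0.47). The 28% called stood beside 24.7% of all genes in either direction and 17.4% higher. The count was 4 with trimmed-mean scaling and 3 without Het/Het replicate 2, KO/KO replicate 1 or KO/KO replicate 3. Asns, asparagine synthetase, rose by 0.76 ± 0.169, Gars, a tRNA synthetase, by 0.84 ± 0.170, Slc7a5, an amino acid carrier, by 0.79 ± 0.258, and Chac1, which degrades glutathione, by 2.33 ± 0.786. The calls of Slc7a5 and Chac1 were lost without any of several single libraries. Atf4, the central factor, was not called (0.30, 95% interval -0.06 to 0.66). Hamp, the iron hormone hepcidin, rose by 2.15 ± 0.610 (adjusted p = 0.0164), but KO/KO replicates 1 (6.45) and 2 (6.58) lay below Het/Het replicate 2 (6.60), and the call was lost without any of 4 libraries (adjusted p = 0.0512 to 0.0550). Tmprss6, a protease that restrains hepcidin, fell by 0.87 ± 0.210, and was not called without the presumed littermates (adjusted p = 0.0607).

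Of the largest single rises, Timp1, an inhibitor of matrix proteases, went from -0.87, -1.13, -1.23 and -2.07 to 0.69, 0.71, 2.07 and 1.46, a rise of 2.55 ± 0.316 (adjusted p = 6.36e-05). Tnfrsf12a, the receptor of the cytokine TWEAK, rose by 2.53 ± 0.408, Cited1, a transcriptional cofactor, by 2.25 ± 0.484, Rdh9, a retinol dehydrogenase, by 3.13 ± 0.442 and Sgk1, a kinase induced by glucocorticoids, by 1.74 ± 0.318. None of these 5 was called against KO/Het livers, whose means were 0.90, 6.04, 2.26, 1.19 and 3.84. Among the falls outside the liver lists, Lgals4, a galectin of gut epithelium, fell by 2.83 ± 0.417 and Krt23, a keratin, by 3.80 ± 0.445. Krt23 fell from a Het/Het mean of 0.59 and had no value in KO/KO replicate 1. Gut and stomach markers summed to 352 to 608 in Het/Het livers and to 150 to 539 in KO/KO livers, with KO/KO replicate 2 the highest of its group, and their part in these results was not tested. The steroid enzyme Cyp17a1 fell by 2.28 ± 0.441 (adjusted p = 0.00187). Hsd3b1, another steroid enzyme, fell by 1.80 ± 0.640 with overlapping groups (adjusted p = 0.0465), a call lost without any of 7 single libraries (adjusted p = 0.0555 to 0.133) and in 5 other fits (adjusted p = 0.0519 to 0.0616), those with the replicate block and with presumed litter among them. These were the only 2 of 16 adrenal and kidney markers that reached the minimum for testing. The sum over the 16, which includes both genes, was 70.5 to 105 in Het/Het livers. In KO/KO replicates 1 to 4 it was 23.8, 73.4, 15.2 and 25.1. The part of such tissue in these falls was not tested.

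**Figure D4:**
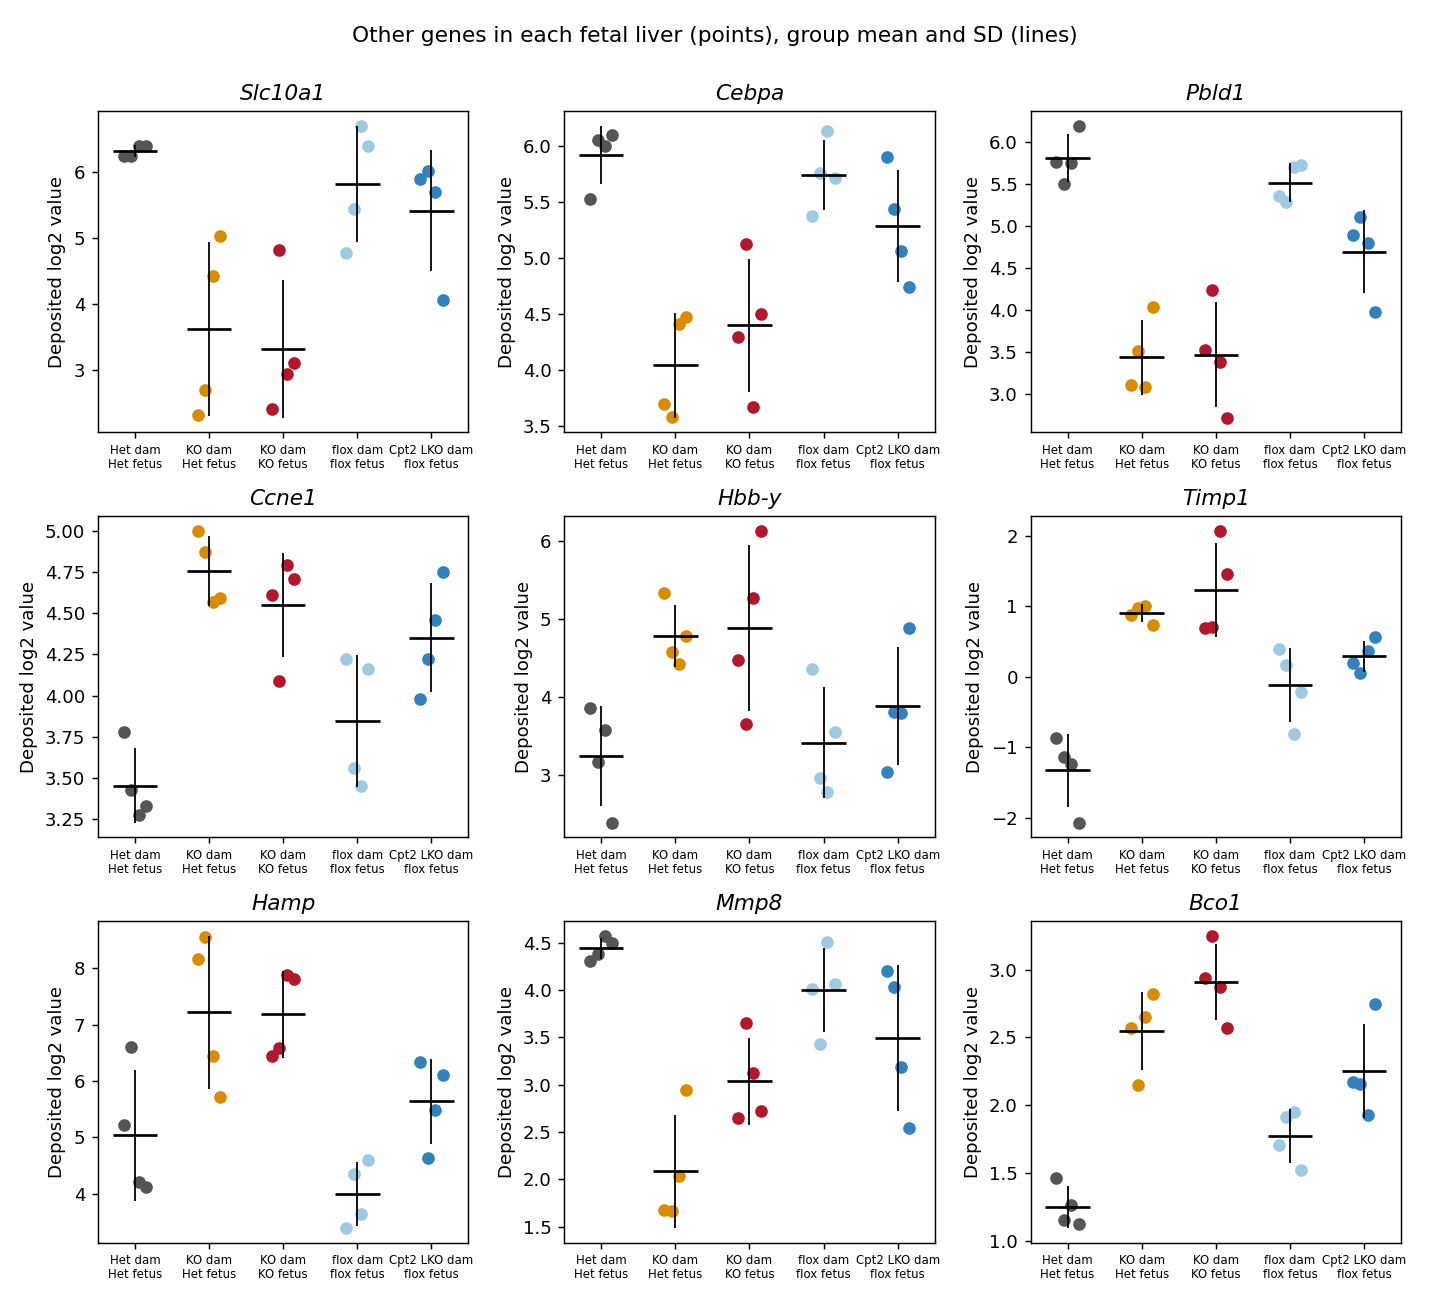
Deposited log2 values (y axis) of 9 genes outside fat oxidation in each liver of the 5 groups (x axis), with group means and standard deviations as lines. KO/KO and KO/Het livers overlap in every panel, and both lie apart from Het/Het livers for Slc10a1, Cebpa, Pbld1, Ccne1, Timp1, Mmp8 and Bco1.

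A last set of falls was found by position after the values were seen. Rpl3, a protein of the large ribosomal subunit, lies at 80077781 to 80083406 on chromosome 15, 5.66 Mb before Ppara. It was at 7.98, 7.66, 7.76 and 7.58 in Het/Het livers, at 8.07 to 8.29 in KO/Het livers and at 4.49, 4.32, 3.79 and 3.90 in KO/KO livers. The fall against Het/Het livers was 3.62 ± 0.131, or 12.3-fold (adjusted p = 8.66e-13). In flox/flox and Cpt2-arm livers Rpl3 averaged 9.15 and 9.12. On the linear scale, KO/KO livers held 3.12% of the flox/flox level, Het/Het livers 37.8% and KO/Het livers 50.2%. The groups with heterozygous fetuses lay between knockout and flox/flox fetuses. Apobec3, an antiviral deaminase 5.84 Mb before Ppara, was at 14.8% of the flox/flox level in KO/KO, 55% in Het/Het and 39.1% in KO/Het livers, and fell by 1.93 ± 0.194 (adjusted p = 9.11e-06). Cpt1b, the muscle form of the carnitine enzyme and a PPARA target, lies 3.68 Mb beyond Ppara and fell by 2.70 ± 0.208 (adjusted p = 2.14e-07). It was at 12.6% of the flox/flox level in KO/KO, 84.9% in Het/Het and 153% in KO/Het livers, so Het/Het livers lay between KO/KO and flox/flox livers and KO/Het livers lay above both. Het/Het replicate 4, 1 of the 2 muscle-marked libraries, was its lowest control (2.74), and KO/KO replicate 2 stood at 1.00 against 0.61 to 0.82.

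Across the 10 Mb on either side of Ppara, 201 other genes were tested, of which 24 were higher and 23 lower against Het/Het livers. That is 23.4%, close to the 24.9% on all other chromosomes. Against KO/Het livers, 6 of the 201 were lower and 0 higher (2.99%), beside 0.807% on other chromosomes and 0.823% on the rest of chromosome 15. Among the 6 was Chkb, choline kinase beta, which starts 3.69 Mb from Ppara next to Cpt1b and fell by 0.87 ± 0.142 in that contrast. Neighbours that overlap on the genome may share reads. The labels give one strain name for all groups, and the DNA around the knockout allele was not examined here. What underlies the fall of Rpl3 and Apobec3 was not tested.

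**Figure D5:**
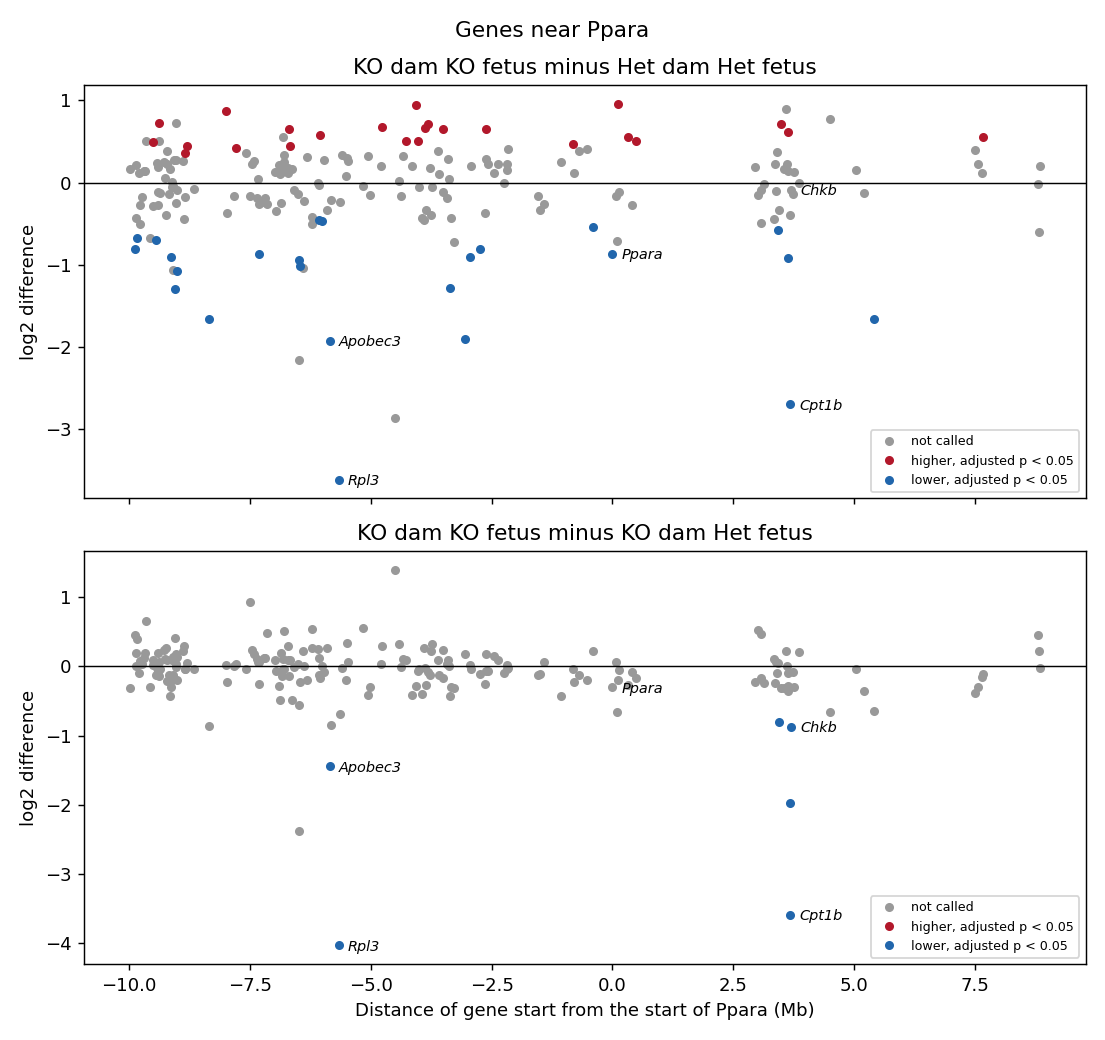
Difference in log2 value (y axis) of genes that start within 10 Mb of Ppara against their distance from its start in Mb (x axis), for KO/KO minus Het/Het livers (top) and KO/KO minus KO/Het livers (bottom). Blue and red points are called lower and higher, with Rpl3 the lowest point in both panels (-3.62 and -4.03), and Apobec3 and Cpt1b are also called lower in both.

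The second control group gives a side view of the rises and falls. Of the 863 genes lower in KO/KO livers, flox/flox livers averaged nearer to KO/KO than to Het/Het livers in 46 (5.33%). Of the 2050 higher genes they did so in 961 (46.9%). Het/Het and KO/KO values chose these genes and flox/flox values did not, so the shares are a description. They were taken with the deposited scaling only, and no such share was taken over all genes tested. Mcpt8 is one such gene, at 1.88 in flox/flox livers against -1.33 in Het/Het and 0.66 in KO/KO livers. For Slc10a1 (5.82), Cebpa (5.74) and Mmp8 (4.00) the flox/flox means lay near those of Het/Het livers (6.32, 5.92 and 4.44).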

How the data were processed

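Deposited log2 signals for 45802 gene entries in 20 mRNA libraries (5 groups of 4, single-end reads of 75 nt) were used. The authors worked with bcl2fastq 2.17.1.14, Partek 7.0 and GRCm38.p6, per the submitters' processing notes. Aligner and counting rule: not given in the sources used. Per the file headers these are log quantile signals, and the largest difference between libraries at any quantile was 4.8e-05. Base 2 was inferred from the range of values. Blank cells were left missing, which affected 130 tested genes in the 8 libraries compared.

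Genes with a log2 value of at least 0 in at least 4 libraries were fitted with limma 3.58.1 in R 4.3.3, with 1 mean per group over all 20 libraries, a variance trend, Benjamini-Hochberg adjustment over all tested genes and a threshold of 0.05. Errors after ± are standard errors unless marked SD, and intervals are 95%. On simulated data for the KO/KO against Het/Het comparison with 11634 genes, log2 changes of 0.5, 1, 2 and 4 were recovered in 28, 70, 92 and 100%, with 11 false calls among 156. The simulation changed a small share of the genes, with independent normal noise and no correlation within presumed litters. Its rates need not hold for a comparison in which 24.7% of genes were called.

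The members, the 48 gene lists and the tests were chosen with earlier results of these data known. Genes named are Ppara, a panel of pathway genes, the 15 largest non-overlapping rises and falls, and per list the called members of smallest p (up to 6 a direction) and up to 3 uncalled members with the highest mean. For the contrasts with KO/Het livers and with the Cpt2 arm the 8 largest rises and falls were taken. Nrip1, Pbld1, Pdzk1, Apobec3 and Chkb were chosen after their values were seen. Results for some genes are not reported here. Alternatives covered scaling, pseudocount, filter, blanks, sex, replicate and litter blocks, and libraries left out. Leaving out the muscle-marked libraries was chosen after seeing the data. Labels do not say that replicates came from separate dams, so p-values measure the spread between these fetuses. Replicate numbers did not pair libraries.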

Additional observations from a re-analysis of the deposited data

Results flagged for a closer look

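Of 225 gene-and-group sets of 4 values examined in Het/Het and KO/KO livers, 10 had a library far from the other 3, and chance flags about 1 in 20 such sets. In KO/KO livers these were replicate 2 for Cyp4f15 (2.90), Plin5 (1.89) and Slco1b2 (2.86), replicate 3 for Fabp1 (7.65) and replicate 1 for Pdp1 (0.38). In Het/Het livers they were replicate 4 for Acot1 (3.03), Acot2 (0.79), Gys2 (6.11) and Hbb-bs (15.34), and replicate 1 for Hsd3b1 (6.08). KO/KO replicate 2 and Het/Het replicate 4 are the libraries with skeletal muscle transcripts.

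The combined Ppara effect and the maternal Cpt2 effect, each against its own controls, differed by limma's test of the difference for 23 of the genes named. On the log2 scale the differences among omega-hydroxylases were -8.37 for Cyp4a10, -6.30 for Cyp4a14 and -3.77 for Cyp4a31. Peroxisomal genes differed by -2.58 (Ehhadh), -3.35 (Acaa1b), -2.22 (Ech1), -2.87 (Decr2) and -1.54 (Slc27a2). Mitochondrial genes differed by -3.15 (Cpt1b), -1.41 (Slc25a20), -1.66 (Acadvl), -1.40 (Etfdh) and -1.50 (Decr1). For Fabp1 the difference was -1.35, for Plin5 -3.70, for Creb3l3 -1.61, for Adtrp -4.06, for Krt23 -3.94 and for Lgals4 -3.0. Rpl3 and Apobec3, near Ppara, differed by -3.59 and -1.81. Timp1 (2.15) and Bco1 (1.18) differed in the positive direction.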

How the results depend on the processing

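Against Het/Het livers, trimmed-mean scaling gave 1151 higher and 1386 lower genes, and single libraries left out gave totals of 1826 to 3020, with 1293 to 1923 higher and 533 to 1106 lower. Calls against KO/Het livers numbered 63 with these groups fitted alone, 62 without the presumed littermates and 75 to 147 with single libraries left out. The difference from the Cpt2 arm called 32 genes with presumed litter as a random block, 80 with trimmed-mean scaling, 22 with a pseudocount of 4 and 31 to 69 with single libraries left out. Same-numbered Het/Het and KO/KO libraries deviated together with correlations of -0.166, 0.266, 0.122 and -0.199, so the numbers were not treated as pairs. With the number as a replicate block, the counts were 3047, 102 and 38 for the 3 comparisons. Of 95 named genes called against Het/Het livers, none reversed under the alternatives run, and leaving out a single library lost 5 to 15 calls. Uncalled genes near 0 changed sign. Angptl4 was 0.01 with litter as a random block, -0.27 to 0.09 with single libraries left out and 0.15 without the presumed littermates. Acadl was -0.06 and Plin2_2 -0.01 with trimmed-mean scaling, Acadl was -0.01 (without Het/Het replicate 2) to 0.10 with single libraries left out, and Atf4 was -0.04 without the presumed littermates. The cause of these shifts was not tested. Depth is unknown, so how far it limits low genes cannot be given.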
